A study of Homo sapiens with 6 samples.

Results

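The genes described here are 10 members of the BCL2 family, which controls the mitochondrial route to apoptosis. They were taken by symbol from the deposited table of 23555 gene rows, and each symbol had exactly 1 row. The series measured mRNA in IMR-32, a human neuroblastoma cell line with amplified MYCN that the labels give as wild type. One group of 3 libraries came from cells given the solvent DMSO and the other of 3 libraries from cells given 25 nM PTC-028, each for 24 h. PTC-028 is a small molecule used against BMI1, a Polycomb protein that keeps genes silent. The comparison asks what this compound does to transcripts, and the series title names activation of the p53 pathway. All cells were of this single line, so the data describe 1 tumour model, and the labels do not say whether the libraries of a group came from separate cultures. All p-values are thus set against the scatter among libraries of unknown origin, which could be technical alone.

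Proteins of the BCL2 family decide whether the outer membrane of mitochondria stays intact. The guardians BCL2, BCL-XL (from BCL2L1) and MCL1 hold the effectors BAX and BAK in check, and BH3-only proteins relieve that hold or activate the effectors directly. Once active, BAX and BAK form pores that release cytochrome c, which starts the caspase cascade. BBC3 (the protein PUMA), PMAIP1 (NOXA) and BAX are textbook transcriptional targets of p53, while BIM, BID and BAD are known to be controlled to a large extent after transcription.

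The promoter windows of BBC3 and BAX, the members with the highest log2 fold changes, are shown from 250 bases before to 50 bases after a gene start as RefSeq gives it (GRCh38.p14). Capitals mark the letters CACGTG, the core of the E-box bound by MYC proteins, and any decamer with at most 1 mismatch to the p53 half-site consensus and an intact centre of 4 bases. Both motifs equal their own reverse complement, so each scan covers both strands, and no marked stretches overlap.
BBC3 (chr19:47232618-47232917, minus strand): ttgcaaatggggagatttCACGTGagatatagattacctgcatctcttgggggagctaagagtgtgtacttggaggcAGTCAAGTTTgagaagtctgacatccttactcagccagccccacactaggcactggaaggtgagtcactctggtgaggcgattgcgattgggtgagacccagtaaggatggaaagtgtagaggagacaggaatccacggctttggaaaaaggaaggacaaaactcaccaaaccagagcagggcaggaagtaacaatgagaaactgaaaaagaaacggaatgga
BAX (chr19:48954625-48954924, plus strand): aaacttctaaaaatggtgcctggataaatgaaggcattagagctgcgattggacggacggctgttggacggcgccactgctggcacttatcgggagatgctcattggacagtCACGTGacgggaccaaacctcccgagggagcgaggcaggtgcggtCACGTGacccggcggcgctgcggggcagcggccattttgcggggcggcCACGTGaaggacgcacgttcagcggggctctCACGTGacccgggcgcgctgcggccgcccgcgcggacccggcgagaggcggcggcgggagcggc
In BBC3 the first capitals are CACGTG and the second are the decamer AGTCAAGTTT, which has 1 mismatch and begins 173 bases before the gene start. A decamer of that kind was present in 32.6% of the 35116 windows of all genes. The BAX window held none, but had CACGTG 4 times, which is so in 5 of all windows, BAX included, or 0.0142%. At least 1 CACGTG was in 7.26% of windows, and the E-box scan was added after the BAX window had been read. Of the 10 genes, 9 had at least 1 window, and MCL1 had none. The exact decamer GGACATGCTC stood 73 bases before the start of BAK1, and 6.63% of all windows held an exact decamer. A decamer with at most 1 mismatch was in a window of 3 members, BBC3, BAK1 and BCL2L11, in the last 113 bases before the start. CACGTG was in a window of 3 members, BBC3, BAX and BID. No window of a member held a complete site of 2 decamers up to 13 bases apart with fewer than 2 mismatches, and 0.743% of all windows did. These matches describe letters in a short window and are not evidence of binding. Sequence outside the windows was not scanned, so a window without a match does not show that a gene lacks p53 sites.

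In the deposited values, the total of each library was fixed by TPM (transcript abundance scaled to 1 common sum), a level per transcript length that allows genes to be compared with each other. Per library, 13580 to 14003 genes reached 1 TPM. The groups lay on opposite sides of the first principal component, with DMSO replicate 3 farthest out at -24.7. In that library the deviations of all tested genes from their means correlated with transcript length (r = -0.30 across genes, on a log2 scale) and with GC content (r = 0.29), whereas the other libraries had values between -0.01 and 0.16 for length and between -0.22 and 0.12 for GC. All 9 adrenergic neuroblastoma markers were present at a mean TPM of at least 1, with summed levels of 2715 to 2847 TPM in DMSO and 2958 to 3036 TPM in PTC-028. Endothelial and epithelial marker sums stayed at 1.07 and 0.595 TPM or less. Leukocyte markers summed to 3.07 to 5.23 TPM in DMSO and 4.24 to 6.25 TPM in PTC-028, most of it PTPRC. Fibroblast markers summed to 14.9 to 18.9 TPM and 15.1 to 19.8 TPM, nearly all of it COL1A1. Melanocyte or Schwann cell markers summed to 3.18 to 7.20 TPM and 3.38 to 5.80 TPM, with SOX10 at 4.19 TPM in DMSO replicate 2 and under 1 TPM in each other library. The p53 target CDKN1A rose, with a log2 fold change of 1.89 ± 0.06 (SE; limma adjusted p = 1.398e-05). The mean TPM of BMI1 was 47.9 ± 3.97 without and 45.5 ± 3.55 with the compound (SD, n = 3 each; limma adjusted p = 0.716).

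BBC3 rose about 3.05-fold in TPM with PTC-028 and was the only one of the 10 genes to pass the test across all genes. BAX was 1.45-fold higher in mean TPM and narrowly missed the threshold. The other BH3-only genes each had a lower mean in PTC-028, at 0.869 to 0.911 of the DMSO level, and none of them passed. Among the guardians, the ratio of means was 1.12 for BCL2, 0.969 for BCL2L1 and 1.07 for MCL1, and none passed.

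The test was limma on log2(TPM + 1), where an adjusted p below 0.05 counts as passing and the adjustment covers all 13836 genes that reached 1 TPM in 3 or more libraries. All 10 members met that filter. The 1 member that passed stands beside 1.88% of all genes tested that passed in either direction (0.867% higher and 1.01% lower). The median log2 fold change of the members was 0.03, and so was that of all genes tested, with 5 members above 0 and 5 below. The groups did not overlap for 4 members, BBC3, BAX, BAK1 and MCL1, all higher in PTC-028. Of all genes tested, 24.0% showed no overlap, and these divide into 13.4% of all genes that were higher and 10.6% that were lower. In whole-culture RNA, fewer cells that express a gene and less RNA per cell cannot be told apart.

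**Figure D1:**
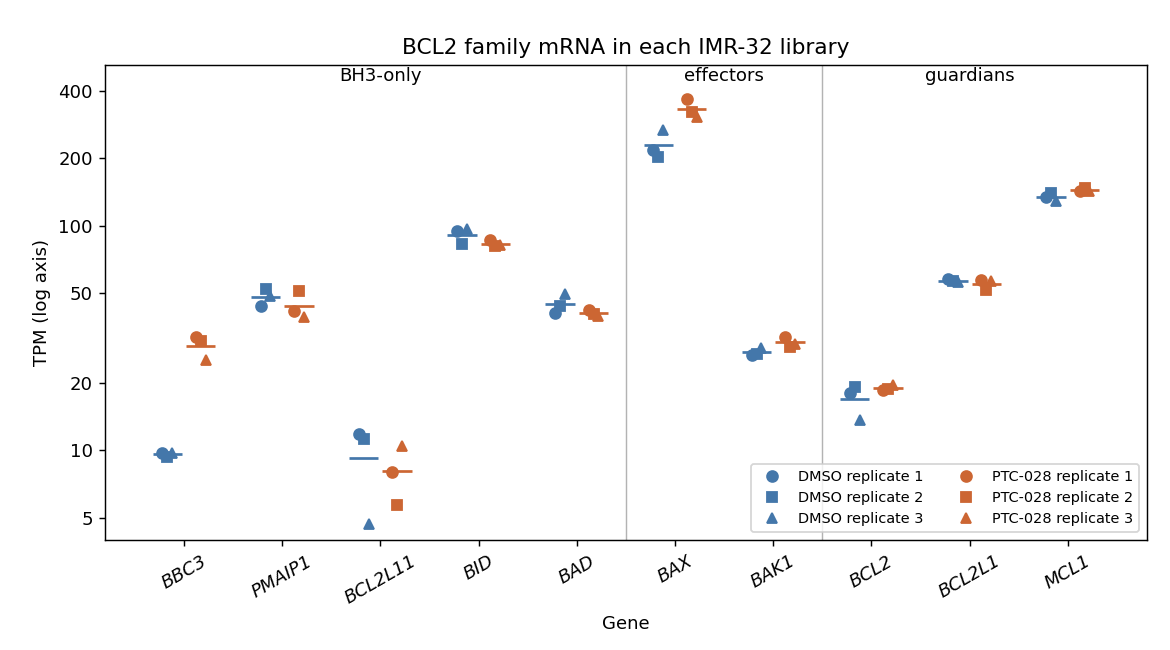
TPM of each of the 10 genes (vertical log axis) in the 3 DMSO libraries (blue) and the 3 PTC-028 libraries (orange), with symbols for the replicate and a line at each group mean. The DMSO points of BBC3 lie at 9.33 to 9.75 TPM and its PTC-028 points at 25.2 to 31.9, while those of BCL2L11 are spread across each other.

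**Figure D2:**
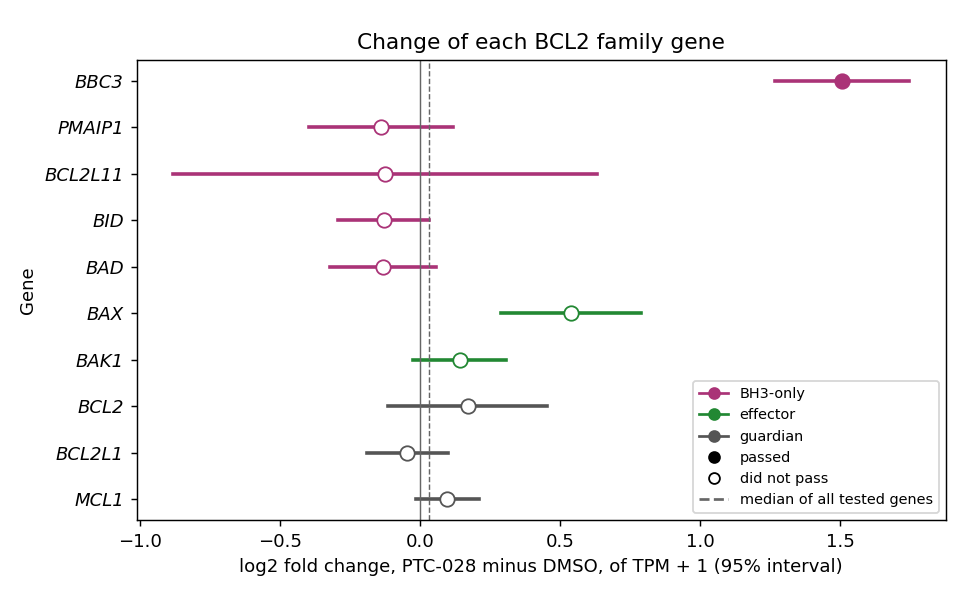
Log2 fold change of TPM + 1, PTC-028 minus DMSO, for each gene (horizontal axis), with its 95% confidence interval from limma. Filled points passed the test, the dashed line is the median of all genes tested, and the intervals of BBC3 and BAX are the ones that do not include 0.

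Of the BH3-only genes, BBC3 (ENSG00000105327.17, chromosome 19, 47220822 to 47232766) encodes PUMA, which binds all the guardians. Its level was 9.75, 9.33 and 9.68 TPM in the DMSO libraries and 31.9, 30.7 and 25.2 TPM in the PTC-028 libraries. The DMSO values were close together, with an SD of 0.224 TPM, and the lowest treated library, PTC-028 replicate 3, was still far above all of them. The log2 fold change was 1.51 ± 0.10 (SE, n = 3 each; 95% interval 1.27 to 1.75; limma adjusted p = 0.000961). BBC3 passed in all 16 alternatives, with log2 fold changes between 1.23 with a pseudocount of 5 and 1.61 without PTC-028 replicate 3, and adjusted p of at most 0.0158. In DMSO, 4.71% ± 0.112 of the summed TPM of the 5 BH3-only genes was from BBC3, and in PTC-028 14.2% ± 1.24 (SD, n = 3 each).

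PMAIP1 (chromosome 18, 59899948 to 59904306) encodes NOXA, a BH3-only protein that binds mainly MCL1 and, like PUMA, is a known product of p53 activation. Its level was 43.9, 52.5 and 48.6 TPM in DMSO and 41.7, 51.2 and 39.1 TPM in PTC-028. The groups overlapped, with PTC-028 replicate 2 above 2 of the DMSO libraries, and the log2 fold change was -0.14 ± 0.11 (SE; 95% interval -0.40 to 0.12; limma adjusted p = 0.557). That interval does not reach the change of BBC3. The value ran from -0.06 without PTC-028 replicate 3 to -0.25 without PTC-028 replicate 2.

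BCL2L11 (chromosome 2, 111119378 to 111168447) encodes BIM, an activator of BAX and BAK and a target of FOXO factors. It measured 11.8, 11.3 and 4.71 TPM in DMSO and 8.03, 5.70 and 10.45 TPM in PTC-028. The DMSO group held both its highest and its lowest value, with DMSO replicate 3 lowest of all. Its log2 fold change was -0.13 ± 0.33 (SE, limma adjusted p = 0.874). The 95% interval of BCL2L11, from -0.88 to 0.63, was the widest of the 10 genes. Changes within that interval are not excluded by these libraries. The interval does not give the size of change that would have been detected. The estimate ran from -0.50 without DMSO replicate 3 to 0.08 without DMSO replicate 1, and was above 0 when DMSO replicate 1, DMSO replicate 2 or PTC-028 replicate 2 was removed. BCL2L11 overlaps the long non-coding gene MIR4435-2HG on the opposite strand, which is not analysed here, and whether the counting used strand is not given in the sources used here.

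BID (chromosome 22, 17734138 to 17774770) encodes a protein that caspase-8 cleaves into its active form and so links death receptors to mitochondria. Its level was 94.9, 82.7 and 96.5 TPM in DMSO and 85.9, 81.5 and 82.2 TPM in PTC-028. DMSO replicate 2 lay within the range of the treated group, and the log2 fold change was -0.13 ± 0.07 (SE; limma adjusted p = 0.380), or -0.20 without DMSO replicate 2. BAD (chromosome 11, 64269830 to 64284704), whose product binds BCL2 and BCL-XL when it is not phosphorylated, had 41.0, 43.7 and 49.8 TPM in DMSO and 42.3, 40.3 and 39.5 TPM in PTC-028. The lowest DMSO library was below the highest treated one, and the log2 fold change was -0.13 ± 0.08 (SE; limma adjusted p = 0.447), or -0.06 without DMSO replicate 3, which had the highest value. BAD overlaps GPR137 on the opposite strand, which had a mean of 31.1 TPM, so without strand their reads cannot be told apart where they overlap.

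Among the effectors, BAX (ENSG00000087088.19, chromosome 19, 48954815 to 48961798) encodes a protein that moves from the cytosol into the mitochondrial membrane. It measured 218, 202 and 266 TPM in DMSO and 367, 321 and 306 TPM in PTC-028. The groups did not overlap, but DMSO replicate 3 was closer to the lowest treated library than to the other DMSO libraries. The log2 fold change was 0.54 ± 0.11 (SE, n = 3 each; 95% interval 0.29 to 0.79; unadjusted p = 0.00112; limma adjusted p = 0.0548). BAX was thus higher without passing, and its call turned on the setting. It passed in 5 of 16 alternatives, among them the removal of DMSO replicate 3, with 0.65 and a limma adjusted p of 0.0161, and it reached a limma adjusted p of 0.185 without DMSO replicate 1. The longest coding transcripts of BAX and BAD, at 1358 and 1157 bases, were the shortest of the 10 genes. With library-wise trends on GC content and length removed, BAX was at 0.56 (limma adjusted p = 0.0143). BAX mRNA was more abundant than that of 96.7% of all genes tested.

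BAK1 (chromosome 6, 33572547 to 33580293) encodes BAK, the effector that resides in the mitochondrial membrane. Its level was 26.4, 26.8 and 28.6 TPM in DMSO and 31.9, 28.9 and 29.7 TPM in PTC-028. The groups did not overlap, but the gap between them was narrower than the spread within either, and the log2 fold change was 0.14 ± 0.07 (SE; limma adjusted p = 0.362). Its processed pseudogenes BAK1P1 and BAK1P2 were at a mean of 0.0399 and 0.0175 TPM, and GGNBP1 on the opposite strand was at 1.16 TPM.

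**Figure D3:**
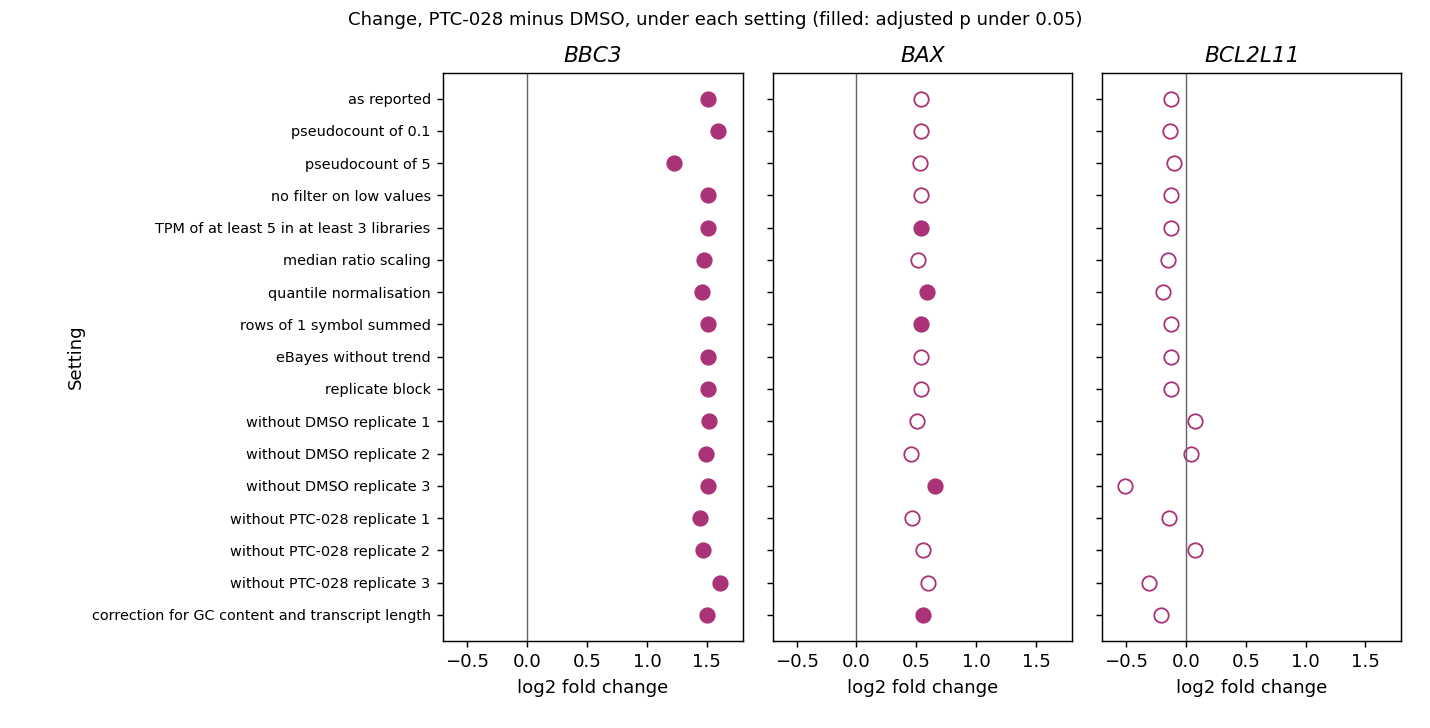
Log2 fold change, PTC-028 minus DMSO, of BBC3, BAX and BCL2L11 (horizontal axis) as reported and under each of 16 alternatives (vertical axis). Filled points have a limma adjusted p under 0.05, which holds for BBC3 throughout, for BAX in 5 alternatives and for BCL2L11 in none.

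The guardians did not pass in any alternative. MCL1 (chromosome 1, 150574551 to 150579738), whose protein turns over within a short time, was the most abundant of them, with 134, 140.02 and 129 TPM in DMSO and 143, 147 and 142 TPM in PTC-028. The groups did not overlap, but the highest DMSO and the lowest treated library were 140.02 and 142 TPM, and the log2 fold change was 0.10 ± 0.05 (SE; 95% interval -0.02 to 0.21; limma adjusted p = 0.352). BCL2L1 (chromosome 20, 31664452 to 31723989), which encodes BCL-XL, had 57.9, 56.9 and 56.2 TPM in DMSO and 57.4, 51.6 and 56.7 TPM in PTC-028. The values overlapped, with PTC-028 replicate 2 the lowest, and the log2 fold change was -0.05 ± 0.06 (SE; limma adjusted p = 0.744). BCL2L1 gives rise to a long and a short protein with opposite effects on apoptosis by alternative splicing, and a value per gene does not separate them.

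BCL2 (chromosome 18, 63123346 to 63320128), the founding member and the target of venetoclax, had 17.9, 19.1 and 13.7 TPM in DMSO and 18.6, 18.7 and 19.5 TPM in PTC-028. DMSO replicate 3 was the lowest, and DMSO replicate 2 lay within the treated range. The log2 fold change of 0.17 ± 0.12 (SE; 95% interval -0.11 to 0.45; limma adjusted p = 0.519) was 0.03 without DMSO replicate 3 and 0.05 with the trends on GC content and length removed. At 7461 and 5231 bases, the longest coding transcripts of BCL2 and BCL2L11 were the longest of the 10 genes, and both genes had their lowest value in DMSO replicate 3. The part of transcript length in the values of that library was examined only through this correction, under which BCL2L11 was at -0.21.

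In DMSO the order of levels was BAX, MCL1, BID, BCL2L1, PMAIP1, BAD, BAK1, BCL2, BBC3 and BCL2L11, from means of 229 to 9.27 TPM. Only PMAIP1 with BAD and BBC3 with BCL2L11 overlapped between neighbours. The order in PTC-028 was the same except that BBC3 stood above BCL2, at 29.2 against 18.9 TPM with no overlap, and its values overlapped with those of BAK1 at 30.2 TPM. In the solvent group BBC3 was thus among the least abundant members. Taken over the 6 libraries of both groups, 52.7% of all genes tested had a lower mean than BBC3.

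The balance of the sides was described by sums of TPM per library, which weight abundant genes most, and no test was made of them. The 7 pro-apoptotic genes summed to 446, 428 and 504 TPM in DMSO and 608, 560 and 532 TPM in PTC-028. The guardians summed to 210.2, 216 and 199 TPM in DMSO and 219, 217 and 218 TPM in PTC-028. Both sums were higher in each treated library than in any DMSO library, that of the pro-apoptotic genes 1.23-fold and that of the guardians 1.05-fold in the mean. Their ratio was 2.12, 1.98 and 2.53 in DMSO and 2.78, 2.58 and 2.44 in PTC-028. These ratios overlapped, since DMSO replicate 3 lay above PTC-028 replicate 3. The mean ratio was 2.21 ± 0.286 in DMSO and 2.60 ± 0.171 in PTC-028 (SD, n = 3 each), a difference of 0.386 that ran from 0.272 to 0.546 over the removal of each single library.

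BAX made most of that difference. Of the 107 TPM by which the mean pro-apoptotic sum was higher, BAX gave 103 TPM and BBC3 19.7 TPM, while the differences were -8.17 TPM for BID, -4.35 TPM for PMAIP1 and -4.12 TPM for BAD. Without BAX the ratio to the guardians was 1.11 ± 0.0763 in DMSO and 1.08 ± 0.0375 in PTC-028 and overlapped. The BH3-only genes alone had mean sums of 203 ± 5.16 TPM and 205 ± 7.60 TPM in the solvent and treated groups (SD, n = 3 each), so the higher level of BBC3 stood beside lower means of the more abundant BID, PMAIP1 and BAD. BBC3 relative to the guardians went from 0.0461 ± 0.0027 to 0.134 ± 0.0163, with no overlap. The ratio of BAX to BCL2 was 12.2, 10.6 and 19.5 in DMSO and 19.7, 17.2 and 15.7 in PTC-028 and overlapped. With each gene given equal weight, the mean log2(TPM + 1) of the pro-apoptotic genes minus that of the guardians was -0.41 ± 0.08 in DMSO and -0.25 ± 0.05 in PTC-028 and did not overlap. That difference rested on BBC3: without it the same measure was -0.10 ± 0.07 in DMSO and -0.15 ± 0.04 in PTC-028 (SD, n = 3 each), which overlapped and turned the direction. TPM measures mRNA, and the balance of the proteins was not measured.

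**Figure D4:**
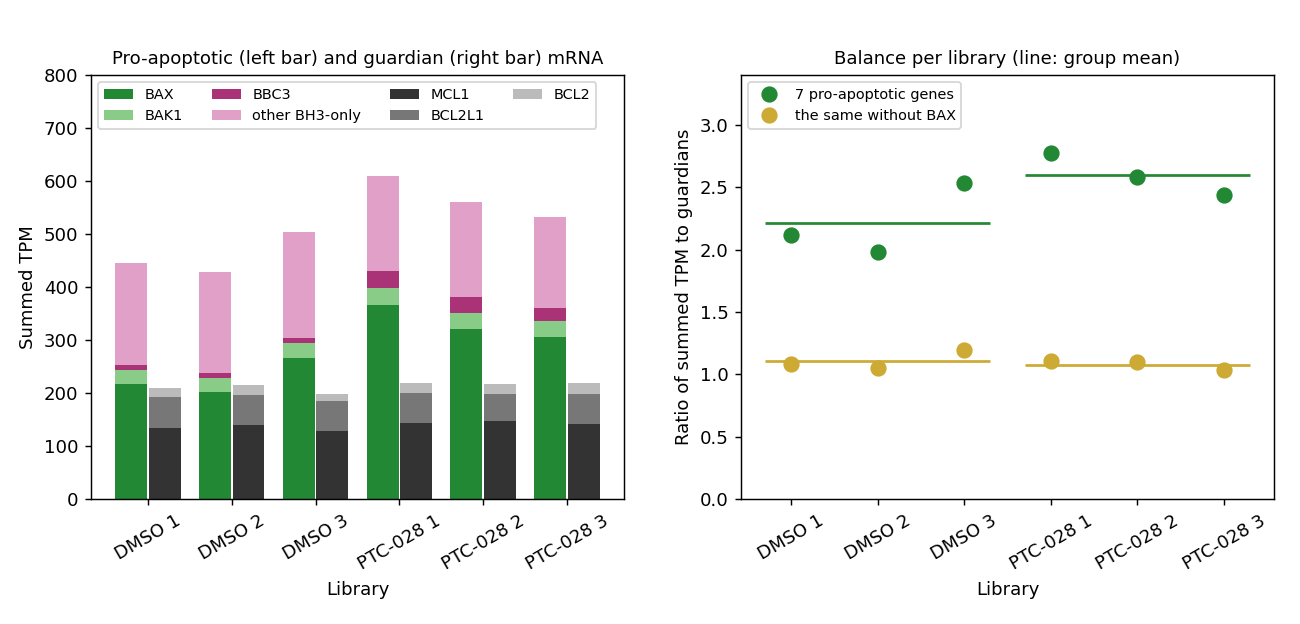
Left, summed TPM per library of the pro-apoptotic genes (coloured bars) and of the guardians (grey bars), split by gene. Right, the ratio of pro-apoptotic to guardian TPM per library with (green) and without BAX (yellow), where lines are group means, and the green points of DMSO 3 at 2.53 and PTC-028 3 at 2.44 cross.

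Other genes of the family or linked to it, and genes of the mitochondrial step, were read from lists, none of which is a test of the list. Of the 14 genes in the first list, which are of the family or linked to it, 12 had a row and 9 were tested. None of the 9 passed in limma, beside 1.88% of all genes tested that did, and their median log2 fold change was 0.06. Of the 9, 0 had an unadjusted p under 0.05, beside 17.3% of all genes tested. BCL2L13, a receptor for the removal of mitochondria, had the smallest p, with a mean TPM of 30.5 ± 3.17 in the solvent group and 35.1 ± 2.27 in the treated group (SD, n = 3 each; limma adjusted p = 0.307). BOK, an effector-like member, measured 5.94, 3.18 and 1.37 TPM in DMSO and 7.60, 5.07 and 5.13 TPM in PTC-028, and the groups overlapped (limma adjusted p = 0.334). HRK, a BH3-only gene of neurons, was the most abundant of these genes in DMSO at 42.5 ± 4.67 TPM, close to PMAIP1 and BAD, against 41.9 ± 1.91 TPM after treatment (limma adjusted p = 0.949). BCL2L15 fell short of the filter for testing, with 0.333, 0.406 and 0.446 TPM in DMSO and 2.98, 1.64 and 0.799 TPM in PTC-028. Its groups did not overlap, and with no filter on low values its limma adjusted p was 0.275. HRK and BCL2L15 are named after their values were seen.

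A list of 19 genes of the mitochondrial step included outer membrane receptors and channels, released proteins, the apoptosome and its inhibitors. None of the 18 tested passed in limma, beside 1.88% of all genes tested that did. Among the 18, 3 had an unadjusted p under 0.05, against 17.3% of all genes tested. The median log2 fold change was -0.08, with 13 below 0. DIABLO, which frees caspases from their inhibitors after its release, had the smallest p, with 105 ± 3.18 TPM in the solvent group and 94.3 ± 2.46 TPM in the treated one (SD, n = 3 each; limma adjusted p = 0.177). CYCS, which encodes cytochrome c, measured 222, 236 and 228 TPM in DMSO and 197, 208 and 215 TPM in PTC-028 (limma adjusted p = 0.197). The treated values of CYCS all lay below the DMSO values.

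The third list held 22 known regulators of the family, and of 19 tested 1 rose and 1 fell in limma, beside 1.88% of all genes tested that passed. An unadjusted p under 0.05 was found for 6 of the 19, beside 17.3% of all genes tested, and their median log2 fold change was 0.18. E2F1, a transcription factor of the G1/S transition that can also raise BH3-only genes, fell from 116 ± 8.42 to 76.4 ± 4.32 TPM (SD, n = 3 each; log2 fold change -0.59; limma adjusted p = 0.00749). That call was lost with the replicate number as a block (limma adjusted p = 0.0561). JUN, which takes part in the stress induction of BIM in neurons, rose from 18.8 ± 0.853 to 26.0 ± 1.58 TPM (log2 fold change 0.45; limma adjusted p = 0.0345). JUN lost its call without any library other than DMSO replicate 3 (limma adjusted p from 0.068 to 0.146), after quantile normalisation, with no filter, with eBayes without a trend and with the block (0.0575 to 0.138).

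**Figure D5:**
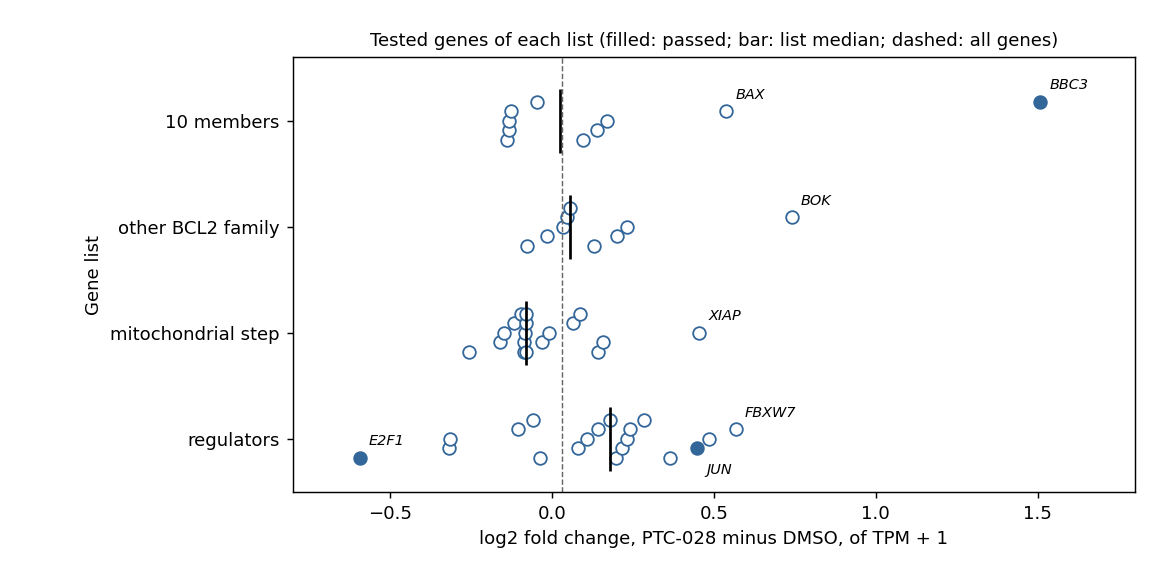
Log2 fold change of TPM + 1, PTC-028 minus DMSO, for the tested genes of each list (rows), where filled points passed and the black bar is the median of the list. The point of BBC3 stands at 1.51, apart from the other 9 members, which lie between -0.14 and 0.54, and the dashed line is the median of all genes tested.

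Across the 6 libraries, the genes with the pattern most like BBC3 were SYTL3, FITM2, MYT1, CYFIP2 and KDM4B, out of 10749 tested genes with a mean TPM of at least 5. Their Pearson correlations with BBC3 on the log2(TPM + 1) scale were 0.998 for SYTL3, 0.995 for FITM2 and MYT1, 0.994 for CYFIP2 and 0.993 for KDM4B. The 6 points fall into 2 treatment groups, so such values mainly describe a clean step between groups, and no p is given. CYFIP2, a regulator of the actin cytoskeleton, went from 30.4 ± 0.555 to 51.9 ± 2.76 TPM, and SYTL3 from 7.45 ± 0.0682 to 12.6 ± 0.568 TPM (SD, n = 3 each). Relative to the DMSO level, the steps of the others were smaller, and a correlation does not measure their size. FITM2 went from 5.28 ± 0.0617 to 5.96 ± 0.0483 TPM. MYT1 went from 9.91 ± 0.223 to 12.9 ± 0.244 TPM and KDM4B from 22.3 ± 0.458 to 29.9 ± 1.37 TPM. Among the members, the correlation with BBC3 was 0.91 for BAX, 0.81 for BAK1 and 0.81 for MCL1, and it was between -0.63 and 0.49 for the other 6.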

How the data were processed

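The authors deposited 1 table of TPM per gene for 6 libraries, poly(A)-selected per the labels' protocols, and these values were used as deposited. The genome build named is GRCh38, per the submitters' processing notes; which aligner and quantifier made the TPM is not given in the sources used here. Depth is unknown from such values and no counting interval is given. Gene coordinates are from GENCODE 29 (GRCh38), in which 22507 of 23555 rows were found.

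The test took genes that reached 1 TPM in 3 or more libraries and used limma (version 3.58.1, under R version 4.3.3) on log2(TPM + 1). Treatment was its single term, with eBayes with a trend, and its 2-sided p-values were adjusted across the 13836 genes after Benjamini and Hochberg. Because 1 was added to each TPM, log2 fold changes of low genes come out too small. The procedure was run on simulated libraries with independent scatter per gene, without an outlying library or trends on GC content and length. The outcome of that run is not given here. The members and lists were chosen with earlier results of these data known. Named are all members, the passing genes and the 2 smallest p of each other list, BMI1, CDKN1A, MDM2 and the 5 genes most correlated with BBC3; a gene that this rule also names is not reported here. MDM2, another p53 target, had a log2 fold change of 0.71 (limma adjusted p = 0.0432) and passed in 9 of 16 alternatives. It did not pass with the replicate block, no filter, eBayes without a trend, or when DMSO replicate 1 or a PTC-028 library was removed (limma adjusted p from 0.113 to 0.142). Genes named outside this rule were chosen after their values were seen. Where a symbol had several rows, the most abundant stood for it.

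Alternatives were pseudocounts of 0.1 and 5, a minimum TPM of 5, no filter, quantile normalisation, median ratio scaling, summed rows of 1 symbol, eBayes without a trend, the replicate number as a block and each library left out in turn. A correction for GC content and transcript length, fitted on the 96.5% of tested genes with both values, was chosen after seeing the data.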

Additional observations from a re-analysis of the deposited data

How the results depend on the processing

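BBC3 passed in all 16 alternatives. BAX passed with a minimum TPM of 5 (log2 fold change 0.54; limma adjusted p = 0.0313), after quantile normalisation (0.59; 0.0321), with summed rows (0.54; 0.0462), after the correction for GC content and length (0.56; 0.0143) and without DMSO replicate 3, its range with 1 library left out being 0.45 to 0.65. In these 5 settings 2 members passed, and in the others 1, so 1 to 2 passed with 1 library left out. With summed rows 13555 genes were tested and with the higher minimum 10809, and BAX had the same fold change in both. Why BAX passed there was not tested. With 1 library left out, the log2 fold change of BCL2L11 ranged from -0.504 to 0.0803 and that of BCL2L1 from -0.0747 to 0.0014, so the sign of each turned in at least 1 case. The other members kept their direction in all alternatives, without passing. Of all genes, 260 passed, but 138 with no filter, 131 with eBayes without a trend and 480 after the correction for GC content and length (170 higher and 310 lower, against 120 and 140), and 67 to 204 with 1 library left out. The count was 67 with DMSO replicate 1 removed, and 90, 75 and 95 with PTC-028 replicates 1, 2 and 3 removed in turn. Of the regulators 2 passed, but 1 with no filter, 1 after quantile normalisation and 1 to 2 with 1 library left out. Why counts and calls changed with the setting was not tested. With the replicate number as a block, 62 genes, 1 member (BBC3) and 0 regulators passed. Deviations of same-numbered libraries correlated at 0.03, -0.03 and -0.10 across genes. Only PTC-028 replicate 1 correlated best with the library of its own number, and the samples share only a number. Median ratio scaling cannot change the ratio of pro-apoptotic to guardian TPM, since a factor per library cancels in it. Summed rows cannot change that ratio either, since each member had 1 row, so neither setting checks it. Depth is unknown from TPM.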

Other observations

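Several regulators of the family lay just outside the threshold and are named after their values were seen. FBXW7 and HUWE1, which encode proteins of ubiquitin ligases known to mark MCL1 for degradation, were higher in every PTC-028 library than in any DMSO library. FBXW7 had 12.8, 11.2 and 9.66 TPM in DMSO and 18.0, 16.3 and 16.8 TPM in PTC-028 (log2 fold change 0.57 ± 0.11, SE; limma adjusted p = 0.0524), and passed in 3 of 16 alternatives. HUWE1 had 67.9, 76.4 and 62.0 TPM in DMSO and 92.9, 86.1 and 86.8 TPM in PTC-028 (0.37 ± 0.08; limma adjusted p = 0.0772), and passed only without DMSO replicate 2. With the trends on GC content and length removed, its log2 fold change was 0.20 (limma adjusted p = 0.0530). PPP1R13B, whose product ASPP1 is known to direct p53 towards apoptotic targets, had 5.38, 6.01 and 5.99 TPM in DMSO and 8.69, 8.47 and 8.38 TPM in PTC-028 (0.49 ± 0.10; limma adjusted p = 0.0615), and passed only with eBayes without a trend.

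XIAP and TP73 are also named after their values were seen. XIAP, an inhibitor of caspases that acts after cytochrome c release, had 11.4, 9.67 and 6.58 TPM in DMSO and 12.4, 12.4 and 13.3 TPM in PTC-028. The groups did not overlap, DMSO replicate 3 was the lowest, and the gene did not pass (0.46 ± 0.17; limma adjusted p = 0.237). Without DMSO replicate 3 its log2 fold change was 0.26 (limma adjusted p = 0.289). The p53 relative TP73 was at 3.16, 3.90 and 3.63 TPM in DMSO and 2.79, 2.35 and 2.86 TPM in PTC-028, with no overlap (-0.32 ± 0.14; limma adjusted p = 0.295).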
